A study of Mus musculus with 16 samples.

Results

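The Dlk1-Dio3 imprinted domain of mouse chromosome 12 was followed across 16 total RNA libraries of embryonic stem cells (ESCs). Its 7 genes, Begain, Dlk1, Meg3, Rtl1, Rian, Mirg and Dio3, were taken by symbol from a table of 26127 genes, and each of the 7 had a row. The labels give 3 genotypes in an E14 background: 8 wildtype (WT) libraries, 4 libraries without Dnmt1 (Dnmt1 KO) and 4 without both Dicer and Dnmt1 (Dicer/Dnmt1 KO). The sample titles mark the WT libraries as controls for Dicer and for Dnmt1, and the Dnmt1 KO libraries as controls for Dicer. The study's methods describe the parent cells as C57BL/6 ESCs with loxP sites in both copies of Dnmt1, deleted by Cre recombination, and Dicer lines derived from them with CRISPR/Cas9, so the strain given differs between the sources. The day after deletion, the number of clones and the meaning of the letters A and B in the replicate labels are not given in the labels. Nothing in them says that 2 libraries come from separate cultures, so the p-values measure the spread between libraries, which may be technical.

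Genomic imprinting leaves a gene active on only the copy inherited from one parent. In the Dlk1-Dio3 domain the coding genes Dlk1, Rtl1 and Dio3 are normally read from the paternal copy, and the noncoding RNAs Meg3, Rian and Mirg from the maternal copy. A control region between Dlk1 and Meg3 carries DNA methylation on the paternal copy. Dnmt1 is the enzyme that copies DNA methylation onto the new strand when cells divide, and Dicer1 cuts microRNA (miRNA) precursors to their mature length. The libraries do not separate the parental copies, so every value is the sum of both.

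In the deposited annotation (build NCBIM37) the interval ran over 1248.91 kb, from chr12:110270397 to chr12:111519307. Begain, at chr12:110270397-110291589 on the minus strand, and Dlk1, at chr12:110691033-110701546 on the plus strand, code for proteins. The noncoding genes Meg3 (chr12:110779211-110809936), Rian (chr12:110842155-110899919) and Mirg (chr12:110973191-110987665) all lie on the plus strand and are annotated as long intergenic noncoding RNAs. Rtl1, at chr12:110827404-110838540, lies between Meg3 and Rian on the opposite strand, and Dio3, at chr12:111517278-111519307, closes the interval. The gap between Dlk1 and Meg3 measured 77.664 kb. Dicer1 itself lies on chromosome 12 and ends 4.28 Mb before Begain.

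The promoter windows of Dlk1, Meg3 and Rian, which are among the genes that rose, are shown with their CpG sites, where Dnmt1 acts. Methylation of these windows was not measured in the libraries, and its part in the rise was not tested. For Meg3, the window nearest its annotated start is shown. Each window runs from 250 bases before to 50 bases after the start of a RefSeq transcript (GRCm38.p6), with CG in capitals. Each was found at 1 place of the interval in NCBIM37, on the plus strand. The Dlk1 window lies at chr12:110690783-110691082, the Meg3 window at chr12:110778956-110779255 and the Rian window at chr12:110841905-110842204.
Dlk1: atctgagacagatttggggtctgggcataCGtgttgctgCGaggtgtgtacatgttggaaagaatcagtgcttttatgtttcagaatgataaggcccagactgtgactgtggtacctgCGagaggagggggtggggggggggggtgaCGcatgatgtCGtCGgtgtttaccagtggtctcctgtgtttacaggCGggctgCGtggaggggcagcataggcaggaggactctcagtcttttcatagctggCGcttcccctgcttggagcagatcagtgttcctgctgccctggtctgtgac
Meg3: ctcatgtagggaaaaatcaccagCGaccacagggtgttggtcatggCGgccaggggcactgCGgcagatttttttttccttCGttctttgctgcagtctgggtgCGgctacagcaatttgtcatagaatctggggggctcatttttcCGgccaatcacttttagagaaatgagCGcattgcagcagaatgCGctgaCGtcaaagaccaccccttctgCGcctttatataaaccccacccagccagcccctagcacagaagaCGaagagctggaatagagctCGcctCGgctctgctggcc
Rian: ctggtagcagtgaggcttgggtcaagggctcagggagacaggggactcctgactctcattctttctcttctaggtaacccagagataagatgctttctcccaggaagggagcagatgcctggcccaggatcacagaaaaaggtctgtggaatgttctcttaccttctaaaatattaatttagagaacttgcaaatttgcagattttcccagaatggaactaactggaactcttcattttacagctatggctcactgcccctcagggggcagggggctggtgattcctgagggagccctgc

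The Meg3 window shown held 13 CG, the Dlk1 window 9 and the Mirg window 10, beside a median of 7 over 32851 windows of the same length. Another Meg3 window, for a start 4397 bases after the annotated one, held 1 CG, and 94.6% of all windows held at least as many. The Rian window held 0 CG. The Mirg window contains the miRNAs miR-668-5p, miR-668-3p and miR-485-3p, so it lies within the stretch that carries miRNAs. The windows were set by annotated transcript starts, and whether those of Rian and Mirg act as promoters was not tested. At least as many CG as in the Meg3 window shown were found in 37.9% of all windows, and at least as many as in the Dlk1 window in 45.8%. Dio3, at the far end of the domain, had 25 CG in its window, and the 5 windows of Begain had 34 to 46. The letters TGCCGC, a motif bound by the imprint factor ZFP57 when methylated, were searched on both strands, and 11.6% of all windows held them. Among the windows of the 6 members with a RefSeq entry, the motif stood 1 time, in the Meg3 window shown.

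The noncoding RNAs carry small RNAs. The annotation places 59 miRNA genes and 23 small nucleolar RNA (snoRNA) genes inside the interval, of which 13 snoRNA genes lie within Rian and 9 miRNA genes lie in the sense direction within Mirg. None of these genes has a row of its own in the table, so the mature small RNAs were not measured here. Of RefSeq's mature sequences, 110 matched the interval at 1 place, and 108 of these lay between the start of Meg3 and the end of Mirg. In the coding exon of Rtl1, 11 mature miRNAs from 6 genes run antisense to it, so that each is complementary along its length to the Rtl1 transcript. Some are shown, with the seed (bases 2 to 8, which pair with targets) in capitals. On the plus strand of NCBIM37 they lie at chr12:110828669-110828689 (miR-431-5p), chr12:110829991-110830012 (miR-433-3p), chr12:110831098-110831119 (miR-127-3p), chr12:110832775-110832796 (miR-434-3p) and chr12:110833541-110833562 (miR-136-5p).
miR-431-5p: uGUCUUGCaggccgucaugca
miR-433-3p: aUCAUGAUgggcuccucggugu
miR-127-3p: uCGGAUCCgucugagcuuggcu
miR-434-3p: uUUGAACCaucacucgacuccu
miR-136-5p: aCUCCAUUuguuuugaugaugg

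Within Mirg, 19 mature miRNAs were placed, 4 in annotated exons and 15 in introns. Few share a seed with another miRNA of the interval. The 110 sequences had 102 different seeds, and 8 seeds occurred in 2 sequences each. Pairs with a common seed that involve Mirg or its neighbours are shown.
miR-410-5p: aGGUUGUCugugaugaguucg
miR-494-5p: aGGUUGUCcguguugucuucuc
miR-453: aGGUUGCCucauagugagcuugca
miR-496a-5p: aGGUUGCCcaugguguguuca
miR-379-3p: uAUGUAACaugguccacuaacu
miR-411-3p: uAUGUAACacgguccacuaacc
miR-376b-5p: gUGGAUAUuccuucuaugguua
miR-376c-5p: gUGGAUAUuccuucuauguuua

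The libraries held 31.5 to 52.5 M reads, of which 13.9 to 25.4 M fell in listed genes. Values are deposited as log2 RPM, where RPM is the number of reads of a gene scaled to a common library size, and a gene without reads is written there as 0.9 read. Counting error alone allows up to 3 reads where 0 were seen, or 0.0571 to 0.0954 RPM per library. Dnmt1 fell in both knockouts and Dicer1 in Dicer/Dnmt1 KO, as labelled (adjusted p of 1.18e-05, 1.06e-05 and 2.81e-06, limma). Dnmt1 lay at 7.06 ± 0.89 (SD, n = 8) in WT, 4.40 ± 0.19 (n = 4) for Dnmt1 KO and 4.57 ± 0.07 (n = 4) for Dicer/Dnmt1 KO. Dicer1 lay at 5.27 ± 0.40, 5.46 ± 0.19 and 3.87 ± 0.16 in the same order. Of 8 ESC markers, among them Pou5f1, Nanog and Sox2, each was above 1 RPM in at least 1 library of every group. Nanog and Sox2 fell by 0.64 and fell by 0.67 in Dnmt1 KO (adjusted p of 0.00023 and 0.00018, limma).

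Together the 7 genes gave 3.24 to 6.28 RPM in the WT libraries, 109 to 115 RPM for Dnmt1 KO and 95.1 to 117 RPM for Dicer/Dnmt1 KO. The median was 25.5-fold and 24.9-fold that of WT, and the groups did not overlap. Meg3, Rian, Mirg and Dlk1 rose. Begain and Dio3 stayed near 1 RPM or under it, and Rtl1 was at or near 0 reads throughout. The median change over the 12892 genes tested was 0.04 and 0.02 on the log2 scale.

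**Figure D1:**
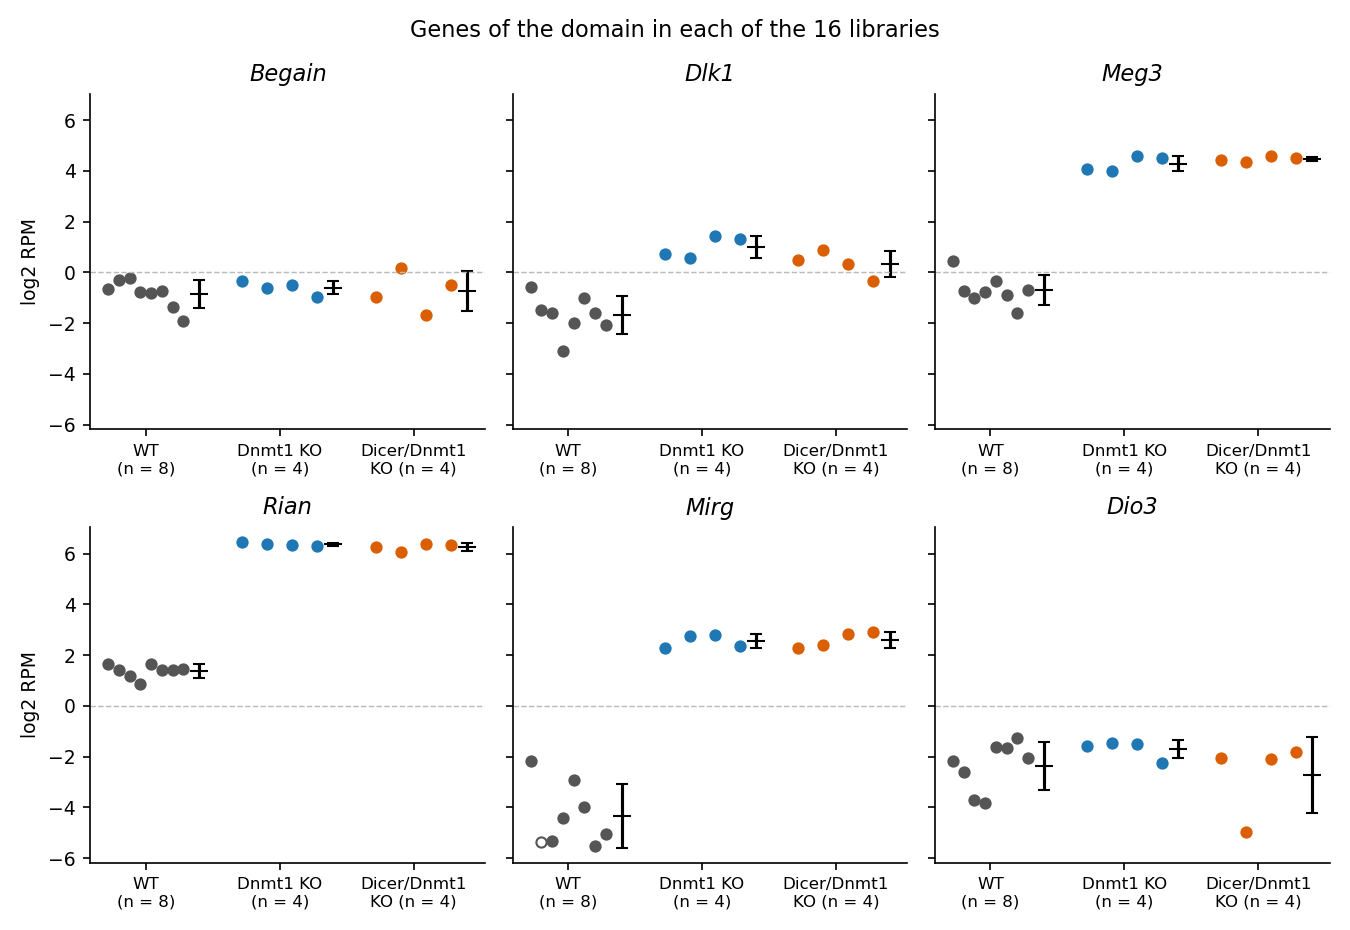
Each point is the log2 RPM of a gene in 1 library, in label order within a group, and the bar beside it is the mean ± SD. The open circle marks WT 1B, where Mirg had 0 reads, and the dashed line marks 1 RPM. In the panels of Dlk1, Meg3, Rian and Mirg the knockout points lie above every WT point, while those of Begain and Dio3 overlap with WT.

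Rian, the noncoding RNA that hosts a large snoRNA cluster, was the most abundant member. In WT its log2 RPM ran from 0.86 over a median of 1.41 to 1.67, from 77 to 167 reads per library. It read 6.45, 6.39, 6.33 and 6.31 in the Dnmt1 KO libraries 1A, 1B, 2A and 2B, and 6.25, 6.05, 6.39 and 6.33 in those of Dicer/Dnmt1 KO. Every knockout library lay above every WT library, and the spread within each group was small. The difference from WT was 4.99 ± 0.12 (SE, log2, adjusted p = 5.45e-15, limma) for Dnmt1 KO and 4.88 ± 0.12 (adjusted p = 8.22e-15) for Dicer/Dnmt1 KO, or 31.8-fold and 29.4-fold. Among the 12892 genes tested, Rian ranked 1 by p-value in both comparisons and 43 and 46 by size of the rise.

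Meg3, the noncoding RNA that starts nearest the control region, rose by as much from a lower level. Its log2 RPM in WT ran from -1.62 over a median of -0.76 to 0.45, from 15 to 43 reads. In Dnmt1 KO it read 4.06, 3.99, 4.57 and 4.51 in 1A, 1B, 2A and 2B, so the libraries numbered 2 were higher than those numbered 1. In Dicer/Dnmt1 KO it read 4.43, 4.36, 4.58 and 4.50. The groups did not overlap with WT, and the differences were 4.99 ± 0.25 (adjusted p = 1.51e-10, limma) and 5.17 ± 0.25 (adjusted p = 4.24e-11), or 31.7-fold and 36.1-fold.

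Mirg, which contains miRNA genes at the far end of the noncoding stretch, was close to absent in WT. It had 7, 0, 1, 2, 7, 3, 1 and 1 reads in WT 1A, 1B, 2A, 2B, 3A, 3B, 4A and 4B, a total of 22. In Dnmt1 KO it had 161, 284, 259 and 171 reads and in Dicer/Dnmt1 KO 178, 170, 274 and 234. The lowest knockout library held 161 reads and the highest WT library 7, so the groups were far apart. Scaled to the depth and pooled, the ratio of reads to WT was 90.8 (95% exact interval 59.6 to 146) for Dnmt1 KO and 92.7 (60.8 to 149) for Dicer/Dnmt1 KO, where the interval covers counting error only. The fit on log2 RPM gave 6.90 ± 0.51 (adjusted p = 1.58e-08, limma) and 6.95 ± 0.51 (adjusted p = 5.82e-09), which depends on the 0.9 read written for WT 1B.

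Dlk1, a Delta-like membrane protein that acts on Notch signalling, also rose, by less. In WT its log2 RPM ran from -3.09 over a median of -1.62 to -0.59, from 5 to 23 reads. In Dnmt1 KO it read 0.74, 0.55, 1.45 and 1.30, and in Dicer/Dnmt1 KO 0.49, 0.89, 0.33 and -0.33. No knockout library fell to the highest WT library, but Dicer/Dnmt1 KO 2B came near it. The differences from WT were 2.70 ± 0.36 (adjusted p = 1.47e-05, limma) and 2.04 ± 0.36 (adjusted p = 0.000118), or 6.50-fold and 4.10-fold. As with Meg3, the Dnmt1 KO libraries numbered 2 lay above those numbered 1.

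The coding genes at the ends of the domain, and Rtl1 in its middle, showed no such rise. Begain, which encodes a protein that binds synaptic scaffolds, had 9 to 34 reads in WT, 17 to 27 for Dnmt1 KO and 12 to 36 for Dicer/Dnmt1 KO. Dio3, the deiodinase that inactivates thyroid hormone, had 3 to 19, 7 to 15 and 1 to 9 reads in the same order. Their groups overlapped. In the fit of all 26127 rows the differences for Begain were 0.24 (95% interval -0.52 to 1.00, adjusted p = 0.617, limma) for Dnmt1 KO and 0.10 (-0.66 to 0.86, adjusted p = 0.825) for Dicer/Dnmt1 KO. For Dio3 they were 0.67 (-0.59 to 1.94, adjusted p = 0.385) and -0.36 (-1.63 to 0.91, adjusted p = 0.627). The first interval holds a rise of Dio3 by 1 on the log2 scale and the other a fall by 1. Rtl1, a retrotransposon-derived gene of the placenta, had 1 read in WT 2B, 1 in Dnmt1 KO 1A and 0 in the other 14 libraries, so no fold change is given.

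Over the 7 genes, all entered in the fit without a filter, 4 were called higher and 0 lower in each knockout against WT, at an adjusted p under 0.05. The background was high: 22.0% of the 26127 rows were called for Dnmt1 KO and 34.3% for Dicer/Dnmt1 KO. In the fit limited to genes above 1 RPM in at least 4 libraries, 4 members entered and all 4 were called, beside 41.0% and 61.9% of the 12892 genes tested. With A and B averaged to 1 value per number, all 4 members stayed called, while the genes called in all went from 5289 to 2288 in the first comparison and from 7985 to 5134 in the other. Dlk1 and Mirg entered only through the knockout libraries, and Meg3 was above 1 RPM in 1 WT library, so these had to differ and the count of 4 is no support. Rian alone was above 1 RPM in all 8 WT libraries. All 4 had every knockout library above every WT library, which held for 14.8% of tested genes for Dnmt1 KO and 22.6% for Dicer/Dnmt1 KO. For Dlk1, Mirg and Meg3 the way they entered the test favours such a gap, so it is no support for them either.

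The second of these comparisons shares its WT libraries with the first, so their values are side by side and not independent. Between the knockouts, limma called 0 of the 4 tested members, and 0 of 7 without a filter, beside 36.3% and 16.2% of all genes. At an unadjusted p under 0.05 the count was 0 in limma and 1, Dlk1, in limma-voom on reads recovered from the values. The difference, Dicer/Dnmt1 KO minus Dnmt1 KO, was -0.11 for Rian (95% interval -0.41 to 0.18), 0.19 for Meg3 (-0.42 to 0.79) and 0.04 for Mirg (-1.20 to 1.29). The interval was narrowest for Rian, while for Mirg it held a difference of 1 in either direction. The fit takes libraries A and B of a number as independent, but these correlated at 0.667, so the intervals may be too narrow. The difference for Dlk1 was -0.66 (-1.54 to 0.21, adjusted p = 0.224, limma), with 4 of 4 libraries under the Dnmt1 KO mean. On log2(RPM + 1) this difference was called (-0.40, adjusted p = 0.0469), so the Dlk1 call depends on the scale. Pooled reads of Dlk1 gave a ratio of 0.644 (0.533 to 0.777, counting error only). By the same measure the ratio was 1.13 (1.07 to 1.19) for Meg3 and 0.931 (0.906 to 0.955) for Rian, so Dlk1 was not alone. The intervals of Mirg, Begain and Dio3 held 1.

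**Figure D2:**
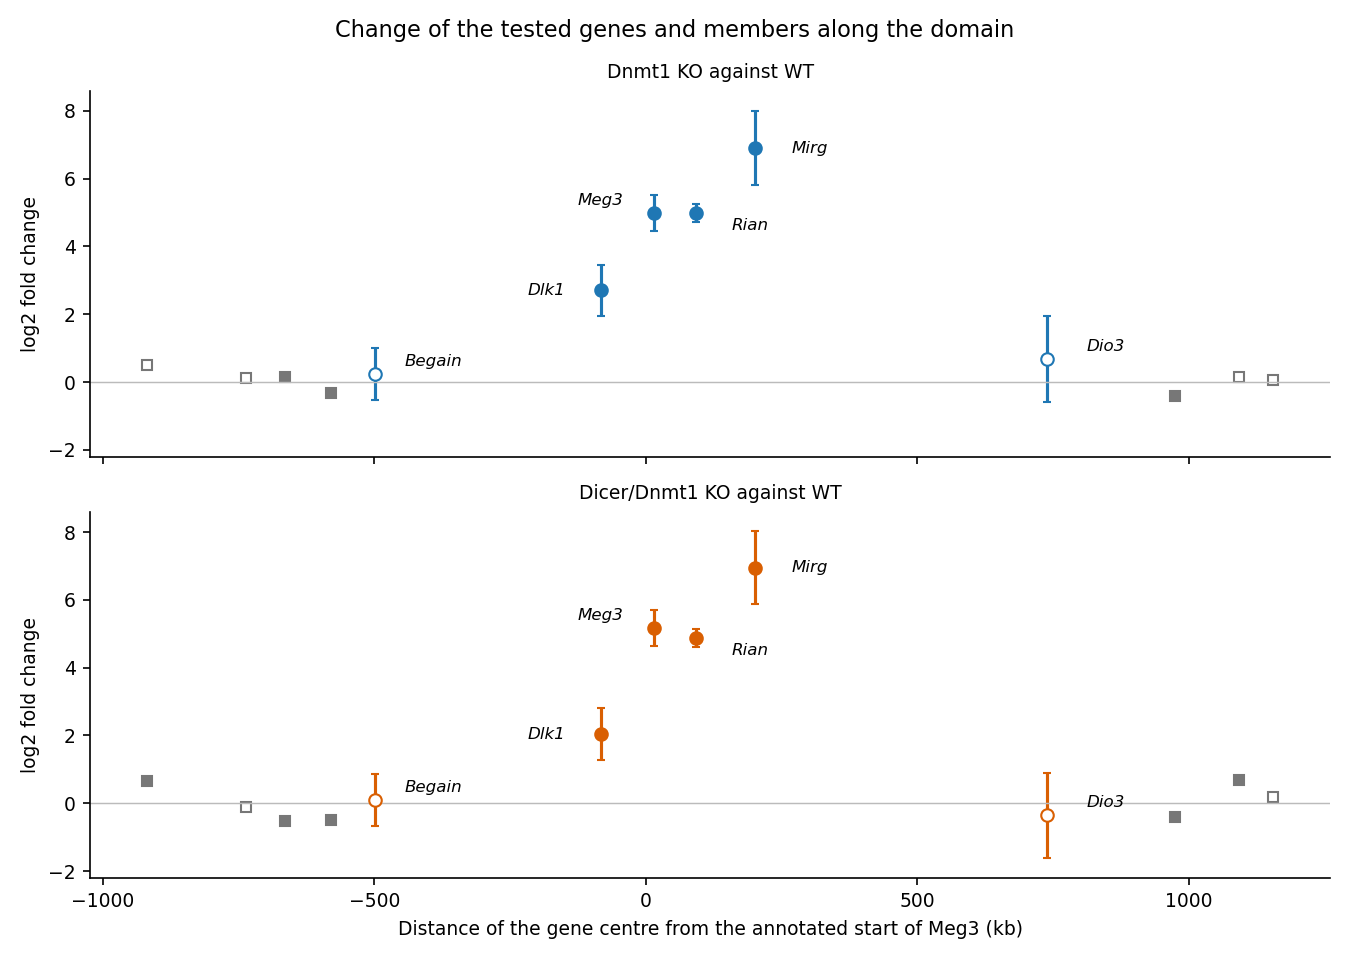
Log2 fold change against WT (y) by distance of the gene centre from the annotated start of Meg3 in kb (x). Circles are members with 95% intervals, squares are tested genes within 500 kb outside the domain, and filled symbols passed an adjusted p under 0.05. Dlk1, Meg3, Rian and Mirg stand between 2.04 and 6.95, while Begain, Dio3 and the outside genes stand between -0.51 and 0.67.

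The tested genes outside the ends differed from WT by less than 1 on the log2 scale, in both directions. Of 8 genes within 500 kb before Begain, 4 were tested, with 1 higher and 1 lower for Dnmt1 KO and 1 higher and 2 lower for Dicer/Dnmt1 KO. Of 5 genes after Dio3, 3 were tested, with 0 higher and 1 lower for Dnmt1 KO and 1 higher and 1 lower for Dicer/Dnmt1 KO. Together 3 and 5 of the 7 were called, near the shares of 41.0% and 61.9% over all tested genes. The nearest tested gene before the domain, Wdr25, lay at 2.21 ± 0.23 in WT and 1.88 ± 0.02 in Dnmt1 KO, a difference of -0.33 (adjusted p = 0.0331). Beyond it, Wars, a tRNA ligase, differed by 0.16 and -0.51, and Yy1, a zinc finger factor, by 0.12 and -0.12. After Dio3, Ppp2r5c, a phosphatase subunit, differed by -0.40 and -0.41, Dync1h1, a motor protein, by 0.15 and 0.67, and Hsp90aa1, a chaperone, by 0.05 and 0.18. The differences of Yy1 and Hsp90aa1 did not pass the test in either comparison, nor did that of Dync1h1 in Dnmt1 KO. Within the domain the other rows were Gm17639, on the strand opposite to the 3′ end of Meg3, with 0 reads in all 16 libraries, and Dio3os, with 0 to 6 reads. Gm17639 lies within the span of Meg3, which had 550 to 883 reads per library in Dnmt1 KO and 654 to 918 in Dicer/Dnmt1 KO. Whether strand was used in counting is not stated and was not tested.

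**Figure D3:**
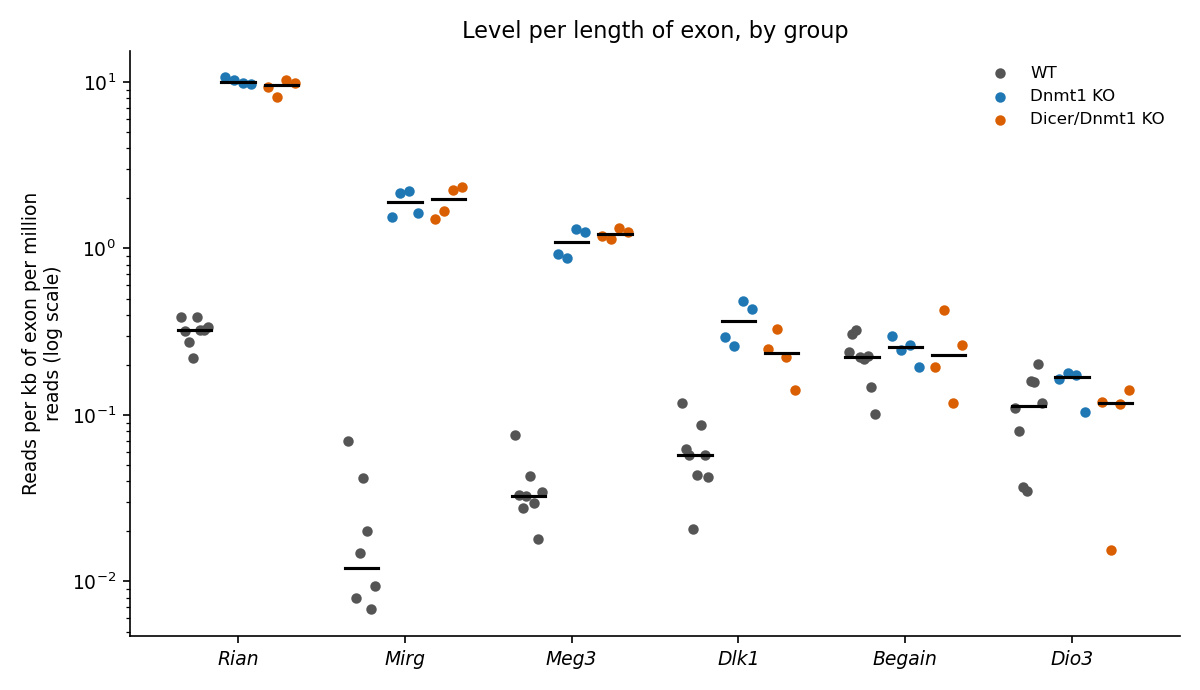
RPM per kb of annotated exon (y, log scale) for each library, by gene and group, with the group median as a bar. Mirg in WT 1B, at 0, is not drawn. In both knockouts Rian, Mirg and Meg3 stand in this order above Dlk1, Begain and Dio3.

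Compared per kb of exon, the order of the genes differed between WT and the knockouts. In WT, Rian lay at 0.322 ± 0.055 and Begain at 0.222 ± 0.073 RPM per kb (SD, n = 8), and their libraries overlapped. Dio3 (0.112 ± 0.060), Dlk1 (0.0610 ± 0.0297), Meg3 (0.0367 ± 0.0171) and Mirg (0.0214 ± 0.0234) followed, each overlapping with the next. In Dnmt1 KO the order was Rian (10.1 ± 0.450), Mirg (1.88 ± 0.342), Meg3 (1.09 ± 0.225), Dlk1 (0.368 ± 0.107), Begain (0.251 ± 0.0434) and Dio3 (0.155 ± 0.0340), and of these neighbours only Dlk1 and Begain overlapped. In Dicer/Dnmt1 KO Rian (9.35 ± 0.936), Mirg (1.95 ± 0.412) and Meg3 (1.23 ± 0.0815) were apart, while Begain, Dlk1 and Dio3 overlapped. The length used was the union of annotated exons, 18089 bases for Meg3 and 3175 for Mirg, so the order of those depends on the annotation.

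**Figure D4:**
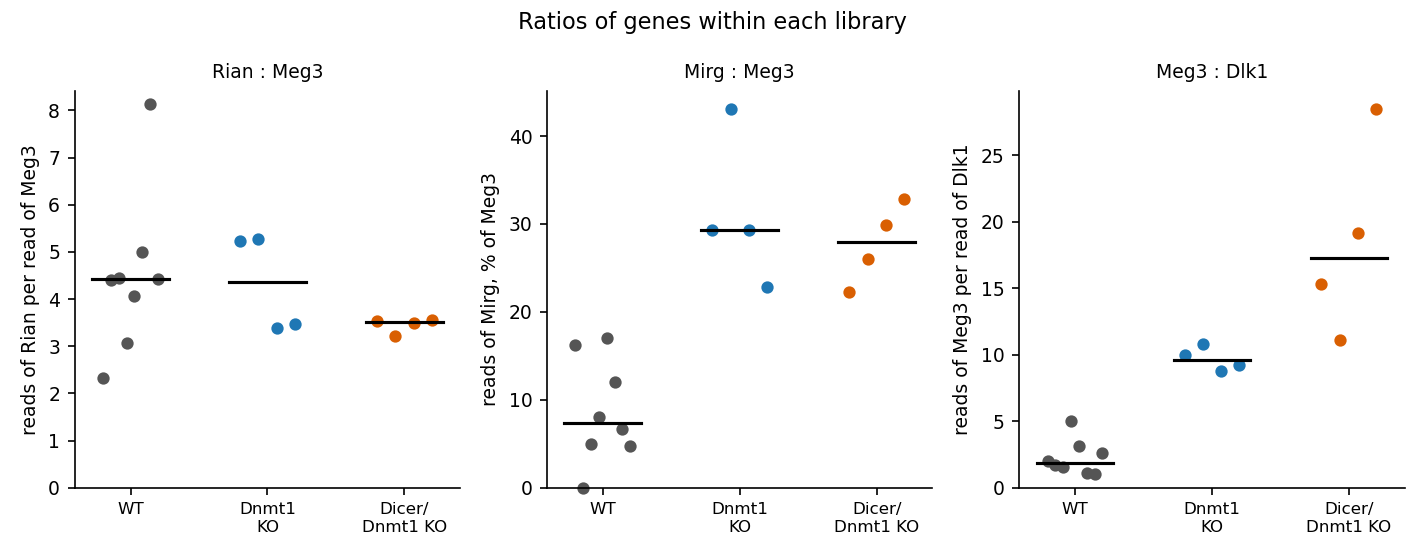
Ratios of reads within a library, by group, with the median as a bar. Rian to Meg3 overlaps across groups, and Mirg to Meg3 is higher in both knockouts than in WT. Meg3 to Dlk1 is lowest in WT, and the ranges of the knockouts nearly meet.

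Ratios of reads within a library need no scaling for depth. Rian gave 2.33 to 8.13 reads per read of Meg3 in WT, 3.38 to 5.28 for Dnmt1 KO and 3.22 to 3.55 for Dicer/Dnmt1 KO. These overlapped, and in Dnmt1 KO the libraries numbered 1 (5.23 and 5.28) lay above those numbered 2 (3.38 and 3.48). Mirg was 0% to 17.1% of Meg3 in WT, from 0 to 7 reads of Mirg, and 22.8% to 43.0% and 22.3% to 32.9% in the knockouts, without overlap with WT. Meg3 to Dlk1 was 1 to 5 in WT, 8.74 to 10.8 for Dnmt1 KO and 11.1 to 28.5 for Dicer/Dnmt1 KO, also without overlap with WT. Between the knockouts the ranges nearly met, at 10.8 in Dnmt1 KO 1B and 11.1 in Dicer/Dnmt1 KO 1B, from 61 and 59 reads of Dlk1. The ratio of 28.5 rests on 25 reads of Dlk1. Rian made up 50.5% to 66.4% of the domain's reads in WT, 70.0% to 78.1% for Dnmt1 KO and 69.6% to 72.8% for Dicer/Dnmt1 KO.

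In the WT libraries numbered 4, Dnmt1 itself was lower, at 5.69 and 5.55 log2 RPM in 4A and 4B. The other WT libraries read 7.40 to 7.66. Dicer1 was also lower in WT 4A and 4B, at 4.78 and 4.56, beside 5.15 to 5.68 in the others, so the difference was not confined to Dnmt1. Rian in WT 4A and 4B, at 1.40 and 1.47, lay within the other WT values, and Meg3, at -1.62 and -0.68, did not lie above them. A WT group limited to numbers 1 and 2 kept 4 of 4 members called in each knockout.

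**Figure D5:**
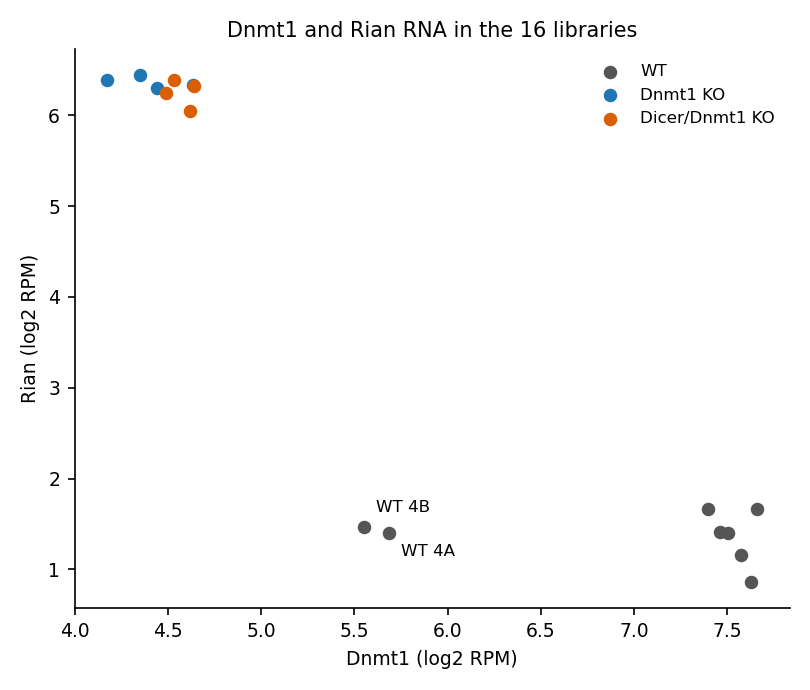
Dnmt1 (x) against Rian (y), both in log2 RPM, 1 point per library coloured by group. WT 4A and 4B have Dnmt1 levels between those of WT and the knockouts, with Rian at the WT level.

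Other cell types can carry the RNAs of this domain, fibroblasts of feeder layers among them, and the study's methods mention culture with and without feeders. In bulk samples fewer cells of a type and less RNA per cell cannot be told apart. Of 8 fibroblast markers, 5 were tested, and 3 rose in Dnmt1 KO, 4 in Dicer/Dnmt1 KO, where 41.0% and 61.9% of all tested genes were called in either direction. Col1a1 rose by 1.40 and 1.72, Col1a2 by 0.96 and 1.19 and Col3a1 by 0.71 and 1.17 on the log2 scale. Postn was called only in Dicer/Dnmt1 KO, at 0.77, and Thy1 in neither. Of the markers not tested, Dcn differed by 0.78 and -0.20, Twist2 by -0.16 and 1.34 and Lum by 1.48 and 1.02. The summed level of the 8 markers was 29.7 to 53.6 RPM in WT, 61.8 to 77.9 for Dnmt1 KO and 63.8 to 117 for Dicer/Dnmt1 KO. The median rose by 2.01-fold and 2.46-fold, beside 25.5-fold and 24.9-fold for the 7 genes. No fibroblast marker was at 0 in all libraries of a group. Their part in the result was not tested.

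Around the domain, the regulators that set or protect imprints were followed as a list of 17, the targeted Dnmt1 included. Genes said to rise or fall passed an adjusted p under 0.05 in limma. In Dnmt1 KO 8 were higher, 3 lower and 6 not called, with a median change of 0.26. In Dicer/Dnmt1 KO 6 were higher, 4 lower and 7 not called (median 0.05). Between the knockouts 1 was higher and 6 were lower in Dicer/Dnmt1 KO. Over all tested genes 41.0%, 61.9% and 36.3% were called in these comparisons, so the 10 of 17 in Dicer/Dnmt1 KO and the 7 of 17 between the knockouts were near the background. Dnmt3l, a cofactor of de novo methylation, rose by 1.16 in Dnmt1 KO, while for Dicer/Dnmt1 KO its difference was -0.18 (adjusted p = 0.203). Eed, a Polycomb subunit, fell by 0.66 in Dicer/Dnmt1 KO, with a difference of -0.13 in Dnmt1 KO.

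Of 16 Notch genes, listed as partners of Dlk1, 11 were tested. In Dnmt1 KO 2 were higher and 2 lower, and in Dicer/Dnmt1 KO 6 were higher and 3 lower. Beside 41.0% and 61.9% of all tested genes, the 4 of 11 in Dnmt1 KO were no more than the background. The ligand Dll1 rose by 1.07 and the target Hes1 fell by 0.83 in Dnmt1 KO. In Dicer/Dnmt1 KO the receptors Notch1 and Notch2 rose by 0.97 and 0.75.

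Of 9 thyroid hormone genes, listed beside Dio3, 6 were tested, with 0 higher and 2 lower for Dnmt1 KO and 1 higher and 4 lower for Dicer/Dnmt1 KO, beside 41.0% and 61.9% of all tested genes called. Crym, a thyroid hormone binding protein, fell by 2.02 and fell by 3.26, and Thra, a hormone receptor, fell by 0.74 in Dnmt1 KO. Of 10 retrotransposon-derived relatives of Rtl1, only 3 were tested. Ldoc1 rose by 2.63 and 3.36 and Peg10 by 1.78 and 1.45, and Ldoc1l fell in both, so that 2 rose and 1 fell beside an Rtl1 near 0 reads. Ldoc1 was under 1 RPM in every WT library and entered the test only through the knockouts.

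Patterns were compared over the 16 libraries by Pearson correlation of log2 RPM, with no p-value. Since the libraries fall in 3 groups, r mostly reflects the differences between groups. The tested genes outside the domain most like Rian were Dub1a (r = 0.99), Zscan4e (0.99), Zfy1 (0.99) and Dub3 (0.99), and Meg3 (0.99), Mirg (0.98) and Dlk1 (0.90) stood beside them. In WT, Dub1a had at most 3 reads, Zscan4e 3, Zfy1 1 and Dub3 9. These genes were under 1 RPM in every WT library and entered the test only through the knockouts, so their high r partly follows from the filter. Dub1a, Dub3 and Zscan4e belong to families of near-identical copies, so their own counts are uncertain. Those most like Dlk1 were Dll1 (0.96), F11r (0.95), Tchh (0.95) and Zhx3 (0.94), above Rian (0.90), Meg3 (0.89) and Mirg (0.89). Tchh, too, was under 1 RPM in every WT library.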

How the data were processed

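Total RNA, depleted of ribosomal RNA, had been sequenced as stranded paired reads. Per the submitters' processing notes, Trim Galore 0.3.5 and TopHat2 2.0.11 were used, and the builds GRCm38 and NCBIM37 are both named. The table's coordinates matched NCBIM37 for all 7 members. The authors discarded alignments of low mapping quality and deposited log2 RPM per gene from SeqMonk. Whole reads were recovered as multiples of 1 read, within 0.01 read, for 100% of values. Their own calls, by DESeq2 and by the intensity difference test of SeqMonk per the methods, were not used. A further 35 value columns belong to other samples and were not used.

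limma 3.58.1 (R 4.3.3) was fitted to the deposited log2 RPM of all 16 libraries with a mean per group and an intensity trend. Genes above a log2 RPM of 0 in at least 4 libraries (12892) were tested with Benjamini-Hochberg adjustment at 0.05. Members under the filter took values from the same fit without a filter. Every adjusted p-value printed comes from limma. The members and lists were chosen with earlier results of these data known. All 7 members were to be named, with the 3 tested genes nearest each end, the 4 most correlated genes for Rian and for Dlk1, and the 2 largest changes of each list, of which 1 is not reported here. Ldoc1l was named after its values were seen. Scripts were tested on simulated data. Alternatives covered scale, filter, normalization, test, replicate unit, pairing, WT subset and leaving out each library.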

Additional observations from a re-analysis of the deposited data

Results flagged for a closer look

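Within the groups, 32 named genes in 3 groups gave 96 checks for a library standing apart, and chance flags about 1 in 20. There were 4 flags. Dio3 in Dnmt1 KO 2B lay at -2.24 log2 RPM, beside -1.58 to -1.47 in the other 3 libraries, and in Dicer/Dnmt1 KO 1B it lay at -4.99, from 1 read, beside -2.09 to -1.81. Both values rest on 7 reads or fewer. Without Dicer/Dnmt1 KO 1B the Dio3 difference from WT turned from -0.36 to 0.39, and neither was called. Among the genes most like Rian, Dub1a was highest in WT 4B, at -3.48 beside -5.72 to -4.98 elsewhere in WT, and Zscan4e was highest in WT 4A, at -3.94 beside -5.87 to -5.13. These rest on at most 3 reads.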

How the results depend on the processing

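Each result was computed under 32 alternatives, 16 of them leaving out a library. In both comparisons with WT every tested member stayed called under all of them. The count was 4 throughout, except 3 with the stricter filter, where Dlk1 was not tested. The adjusted p of Dlk1 rose to at most 0.0111 and 0.0145. Between the knockouts the count of members, and of interval rows, was 0 except 1 (Dlk1) on log2(RPM + 1). Leaving out libraries gave 4 to 4 members against WT and 0 to 0 between knockouts. Over all alternatives Rian changed by 4.53 to 5.10 for Dnmt1 KO and 4.42 to 4.99 for Dicer/Dnmt1 KO, Meg3 by 3.64 to 5.18 and 3.82 to 5.36, Dlk1 by 1.18 to 2.86 and 0.78 to 2.26, and Mirg by 2.69 to 7.27 and 2.73 to 7.36. The lowest values for Mirg came from log2(RPM + 1), which understates changes from near 0 by construction.

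Reversals concerned differences that were not called. Begain in Dnmt1 KO turned to -0.061 with quantile normalization and to -0.12 with WT numbers 1 and 2 only, and Dio3 to -0.043 with WT numbers 3 and 4 only. In Dicer/Dnmt1 KO Begain turned to -0.23 with quantile normalization, -0.55 with letter A only, -0.26 with WT numbers 1 and 2 only, and ranged from -0.20 to 0.41 without single libraries. Dio3 there turned to 0.14 with letter A only, 0.36 with WT numbers 1 and 2 only, and ranged from -0.67 to 0.39 (without Dicer/Dnmt1 KO 1B) over left-out libraries. Between the knockouts Begain turned to 0.62 with letter B only and ranged from -0.44 to 0.17 without single libraries, and Mirg from -0.052 to 0.16. The causes were not tested. Rtl1 was given no fold change and so has no alternative.

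With the replicate block, by number or full label, 4, 4 and 0 members were called, the same counts, while Begain became -0.12 for Dnmt1 KO and -0.26 for Dicer/Dnmt1 KO, and Dio3 0.36 in Dicer/Dnmt1 KO. Same-label deviations from the group means correlated between -0.42 and 0.37. The knockouts hold only numbers 1 and 2, so this cannot decide whether the labels pair samples across groups. Libraries A and B of a number correlated at 0.667, so the SEs may treat as independent what is partly shared. Averaging A and B, or fitting them as correlated, left the member counts at 4, 4 and 0. Over all 12892 genes, called were 5289, 7985 and 4682 (Dnmt1 KO to WT, Dicer/Dnmt1 KO to WT, between knockouts), but 2288, 5134 and 1225 with A and B averaged, 2723 and 2109 in the first and last with them correlated, 1833, 4002 and 951 with letter A only, 1610, 4813 and 667 with letter B only, and 901, 1650 and 589 with a minimum change of 2-fold. limma-voom called 5319, 8000 and 4715. The depth limits Mirg, Dlk1, Begain, Dio3 and Rtl1, with 0 to 34 reads in WT libraries.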

Other observations

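Markers of cell types other than ESCs and fibroblasts moved in the same libraries as the domain. All 6 primitive endoderm markers rose in Dnmt1 KO, with summed levels of 29.9 to 41.9 RPM beside 9.24 to 16.2 RPM in WT, while in Dicer/Dnmt1 KO 3 of 6 rose, with 13.3 to 18.7 RPM. Of 6 trophoblast markers 3 were tested, and 3 rose in Dnmt1 KO, 2 in Dicer/Dnmt1 KO, with sums of 4.71 to 6.96 and 2.96 to 4.56 RPM beside 1.13 to 1.85 in WT. The tested ones, Cdx2, Ascl2 and Hand1, were under 1 RPM in every WT library, as was Foxa2 of the endoderm list. These genes entered the test only through knockout libraries, so the counts that include them are no support. Prl3d1, of trophoblast giant cells, had 0 reads in every library. Of 4 neural markers with a row, 3 were tested, with 0 higher and 1 lower for Dnmt1 KO and 2 higher for Dicer/Dnmt1 KO. Of 4 mesoderm markers none passed the filter. Of 8 ESC markers, 0 were higher and 3 lower for Dnmt1 KO and 2 lower for Dicer/Dnmt1 KO. Over all tested genes 41.0% were called in Dnmt1 KO, 61.9% in Dicer/Dnmt1 KO. The part of any of these in the rise of Meg3, Rian, Mirg and Dlk1 was not tested.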
